A study of Mus musculus with 11 samples.

Results

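The Ube2 genes of the mouse were followed across fasted calf muscle of 2 knockout lines and their floxed controls. A gene was taken as a member when its symbol in the deposited table began with Ube2 and its type there was protein coding. This gave 37 members out of 55385 genes in the table, and 33 of them were among the 15416 genes with enough counts to be tested. The rule follows names, so it also takes in Ube2cbp, known by its annotation as an E2-binding protein with ligase activity, and it passes over Cdc34, an E2 enzyme under another symbol. Another 6 symbols beginning with Ube2 are pseudogenes or non-coding RNAs in the table and were left out. Among these Ube2d-ps held 8851 counts over all libraries, so reads of the near-identical Ube2d genes may have been divided between copies by the estimation.

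The tissue was whole gastrocnemius, a mixed-fibre calf muscle, and every animal had been fasted for 36 h, a way of inducing muscle wasting, so no fed muscle serves as a baseline. Mice homozygous for floxed ZEB1 that also carried HSACre, labelled ZEB1-KO, gave 3 libraries, and floxed ZEB1 mice without Cre gave 2 control libraries, numbered 2 and 3 in their titles. Mice homozygous for floxed ZEB2 with HSACre, labelled ZEB2-KO, gave 3 libraries, and floxed ZEB2 mice without Cre gave 3 controls. HSA-Cre is driven by the skeletal actin promoter and acts in myofibres, so the other cells of the muscle keep the floxed gene. No group carried Cre alone, and loss of a ZEB gene cannot be told apart from presence of Cre. Both ZEB proteins are DNA-binding factors with zinc fingers, best known for repression. Each library was a pool of RNA from 2 mice, and p-values measure the spread between pools. Ages are not given in the labels.

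Ubiquitin reaches its substrates by a relay. An E1 enzyme activates it, an E2 enzyme carries it on a cysteine, and an E3 ligase brings the loaded E2 to the substrate. The E2 largely sets which linkage a growing chain takes, and related E2 enzymes carry ubiquitin-like proteins such as NEDD8 and ISG15 instead. In wasting muscle the ligases Trim63 (MuRF1) and Fbxo32 (atrogin-1) are the best-known induced genes of this system, and Ube2b is the E2 enzyme most often described in muscle catabolism.

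Total counts ran from 27.3 to 46.3 M per library. The targeted genes stood on the side their labels give: Zeb1 at 28.4 to 30.4 CPM in ZEB1 knockouts, against 41.2 and 51.1 CPM in ZEB1 controls, and Zeb2 at 14.4 to 18.3 CPM in ZEB2 knockouts, against 23.1 to 25.8 CPM in ZEB2 controls. Neither passed the test over all genes (edgeR adjusted p = 0.80 for Zeb1 and 0.0775 for Zeb2). Zeb1 also stood above control in the ZEB2 line, at 67.2, 60.2 and 76.0 CPM in ZEB2 knockouts, against 47.7, 52.1 and 43.7 CPM in ZEB2 controls. Its log2 fold change there was 0.50 (SE 0.14, edgeR adjusted p = 0.0787), beside -0.53 (SE 0.13) for Zeb2. In the ZEB1 line Zeb2 was at 0.07 (SE 0.14). CPM here means counts per 1000000 of the library total after scaling by TMM. Libraries differed in sex: Y-linked genes were at 0 CPM in ZEB1_KO 1, ZEB1_KO 2, ZEB1_control 2 and ZEB2_control 3, and between 116 and 370 CPM in the other 7. The 12 myofibre markers summed to 104500 to 139200 CPM over the libraries.

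Per unit length, Ube2b was by far the most abundant E2 gene. Divided by the summed length of its exons, its mean over the 11 libraries was 253 CPM per kb, 40.2% of the same quantity summed over the tested Ube2 genes. Ube2g1 followed at 39.3 and Ube2v1 at 33.9 CPM per kb. The lowest tested genes were Ube2ql1 at 0.137, Ube2c at 0.165 and Ube2e2 at 0.630 CPM per kb. Lengths matter for this order: by the median length of protein-coding transcripts Ube2b still came first, with 33.2% of the sum, but Ube2d3 came second at 126 CPM per kb, whereas by summed exons it was number 10. Exon overlaps bear on some levels, since the strand setting of the authors' counting is not given in the sources used here. Ube2c shares 592 bases of exon with Tnnc2, the fast troponin C gene, on the other strand, and Tnnc2 held 2055741 counts against 156 for Ube2c. Ube2s shares 183 exon bases with Rpl28, Ube2e1 718 with Nkiras1 and Ube2l3 1670 with Ydjc, in each case on the other strand.

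**Figure D1:**
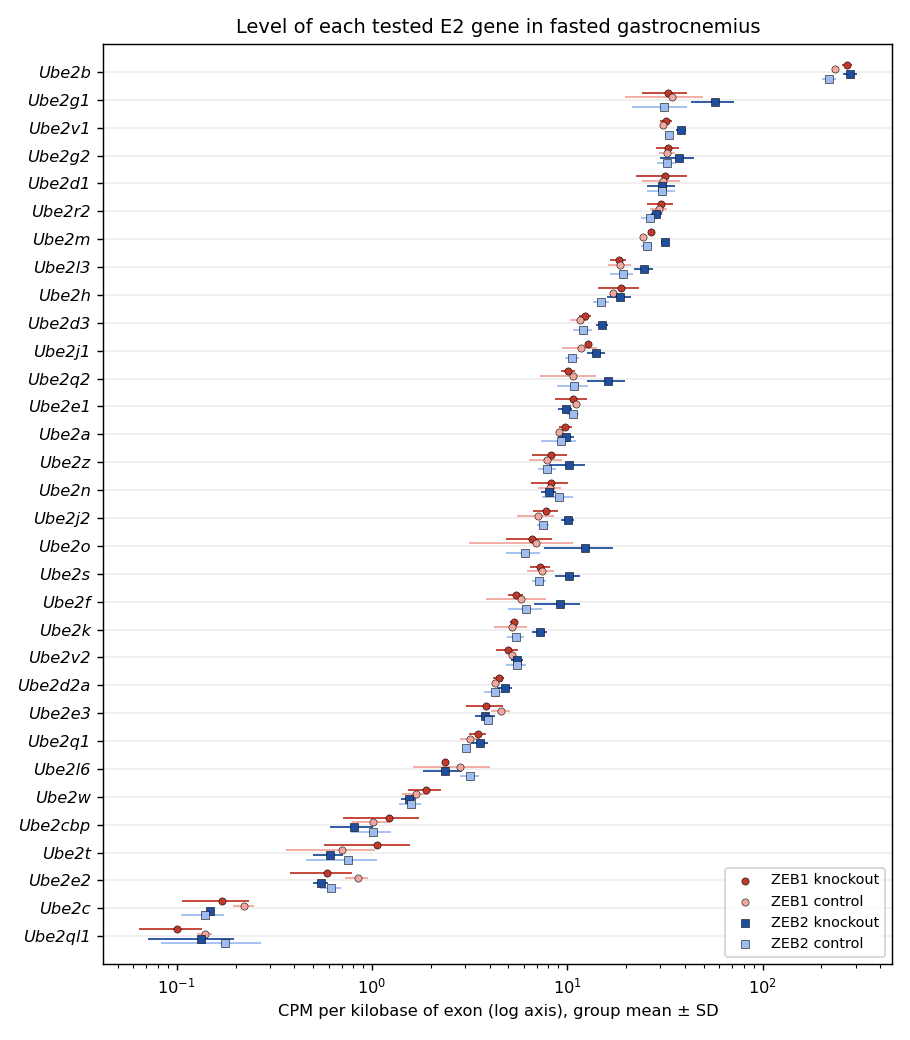
Level of 32 tested Ube2 genes in CPM per kb of summed exon length on a log axis, one row per gene, with the mean of each of the 4 groups as a point and its SD as a bar (n = 3 libraries, or 2 for ZEB1 controls). Ube2b stands apart at the top (mean 253 CPM per kb) and Ube2ql1 lies at the bottom (0.137).

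The other 4 members were not tested. Ube2d2b, Ube2dnl1 and Ube2dnl2 had 0 counts in all 11 libraries, which allows up to 0.00815 CPM (3 counts over the scaled total, counting error only). Ube2u had 5 counts over all libraries.

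Promoter windows are shown for Ube2b and Ube2g1, the 2 genes with the highest level per kb of summed exons. By median transcript length Ube2g1 was number 6. These 2 genes differ in how steady they were between libraries of 1 group, with SDs on the log2 scale of 0.10 for Ube2b and 0.43 for Ube2g1. The windows are taken from RefSeq on build GRCm38.p6 and run from 250 bases before to 50 bases after the transcription start, 5′ to 3′ on the gene's own strand. The window of Ube2g1 is chr11:72607011-72607310 on the plus strand. The window of Ube2b is chr11:52000737-52001036 on the minus strand, the first of 2 in the table. Capitals mark CACGTG, an E-box read by bHLH factors such as USF and MYC.
Ube2g1: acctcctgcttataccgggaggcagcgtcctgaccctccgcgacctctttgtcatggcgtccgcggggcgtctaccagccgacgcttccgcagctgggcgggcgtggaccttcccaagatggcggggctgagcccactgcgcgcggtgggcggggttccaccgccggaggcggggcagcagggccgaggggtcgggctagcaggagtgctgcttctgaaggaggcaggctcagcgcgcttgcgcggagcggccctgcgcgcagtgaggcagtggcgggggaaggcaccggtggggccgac
Ube2b: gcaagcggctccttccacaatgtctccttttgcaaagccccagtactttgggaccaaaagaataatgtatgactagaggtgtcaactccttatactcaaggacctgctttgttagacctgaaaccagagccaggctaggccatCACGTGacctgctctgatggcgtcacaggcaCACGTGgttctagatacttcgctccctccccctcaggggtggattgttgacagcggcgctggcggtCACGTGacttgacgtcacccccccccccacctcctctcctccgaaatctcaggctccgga

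The letters CACGTG occur 3 times in the Ube2b window and not in the Ube2g1 window. They are found, on either strand, in 7.15% of all 32851 windows of this length. The 30 members with an entry had 41 windows, and 3 of these held CACGTG (Ube2b, Ube2cbp and Ube2q1). CACCTG, the E-box that ZEB factors are known to bind, occurs on either strand in 20.2% of all windows. Among the 41 member windows 5 held it (Ube2a, Ube2cbp, Ube2d1, Ube2e1 and Ube2v1). TGTTTAC, the forkhead motif of FoxO factors, occurs in 3.65% of all windows and in 1 of the 41 member windows, that of Ube2h. These are matches of letters in a fixed window, and binding was not measured. GC content was 72.7% in the Ube2g1 window and 55.7% in the Ube2b window.

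In ZEB2 knockout muscle many ubiquitin E2 genes stood above the floxed controls, yet none passed the test across all genes. The log2 fold change was above 0 for 23 of the 33 tested members (69.7%, against 46.6% of all genes tested) and below 0 for 10. Their median was 0.22, against -0.05 for all genes tested, and they ran from -0.43 (Ube2l6) to 1.03 (Ube2o). The edgeR quasi-likelihood test called 0 members at an adjusted p of 0.05, against a background of 0.0% of all genes. The smallest adjusted p among members was 0.0832 (Ube2s, edgeR), close to the smallest of any gene, 0.0775. At an unadjusted p under 0.05, 13 members were higher (39.4%), against 15.9% of all genes, and 0 were lower, against 17.3%. Among them were Ube2b, Ube2d3, Ube2f, Ube2g1, Ube2j1, Ube2j2, Ube2k, Ube2l3, Ube2m, Ube2o, Ube2q2 and Ube2s. In 15 members every knockout library lay above every control library (45.5%), against 21.3% of all genes, and in 0 members below, against 22.1%.

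The call for the ZEB2 line depended on the model. DESeq2 called 7 members higher (Ube2b, Ube2g1, Ube2j1, Ube2k, Ube2m, Ube2o and Ube2s), against 9.08% of all genes, and 0 lower, against 7.7%. edgeR fitted to the ZEB2 libraries alone called 4 higher (Ube2g1, Ube2j2, Ube2o and Ube2s), against 7.61% of the 14673 genes it tested, and 0 lower, against 6.54%. limma-voom called 0. With the Y-linked level as a covariate, 2 members (Ube2b and Ube2m) kept an unadjusted p under 0.05 in place of 13. The log2 fold change in that fit was 0.31 for Ube2b and 0.30 for Ube2m, close to the values without the covariate. It was smaller by over 1.5 times for the other members named above: 0.49 for Ube2o, 0.29 for Ube2g1, 0.29 for Ube2s, 0.27 for Ube2q2, 0.27 for Ube2f, 0.26 for Ube2j1, 0.25 for Ube2k, 0.20 for Ube2j2, 0.15 for Ube2d3 and 0.14 for Ube2l3. The count was 3 without ZEB2_control 3, 6 without ZEB2_KO 3 and 7 without ZEB2_control 1. For these fits and the covariate fit the share of all genes at that p is not given here. The smaller counts therefore do not show a loss particular to the members. The Y-linked level was 217, 261 and 370 CPM in ZEB2 knockouts, against 116, 250 and 0 CPM in ZEB2 controls, and its part in the result was not tested beyond that covariate.

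In ZEB1 knockout muscle the same genes lay around their controls. The log2 fold change was above 0 for 19 members (57.6%, against 51.2% of all genes) and below 0 for 14, with a median of 0.03, against 0.01 for all genes, and a range from -0.52 (Ube2e2) to 0.60 (Ube2t). edgeR called 0 members, against a background of 0.0%, and the smallest adjusted p was 0.9998. limma-voom and DESeq2 called 0 members as well, the second against 0.136% of all genes in either direction. No member had an unadjusted p under 0.05, where 1.64% of all genes were higher and 1.6% lower. Knockout libraries lay above both controls in Ube2b and Ube2m, against 7.19% of all genes, and below both in Ube2ql1, against 6.69%. The 2 ZEB1 controls differed widely from each other, and the members' median was -0.07 without control 2 and 0.12 without control 3. Of the 8 fibroblast markers all lay below control in this line, with sums of 1611 to 2241 CPM in ZEB1 knockouts, against 2608 and 2627 CPM in ZEB1 controls. Below control lay also 8 of 8 Schwann markers (median -0.46), 7 of 8 macrophage markers (median -0.24), 5 of 6 adipocyte markers (median -0.67) and 6 of 8 endothelial markers (median -0.11), with sums that overlapped. The part of these markers was not tested.

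**Figure D2:**
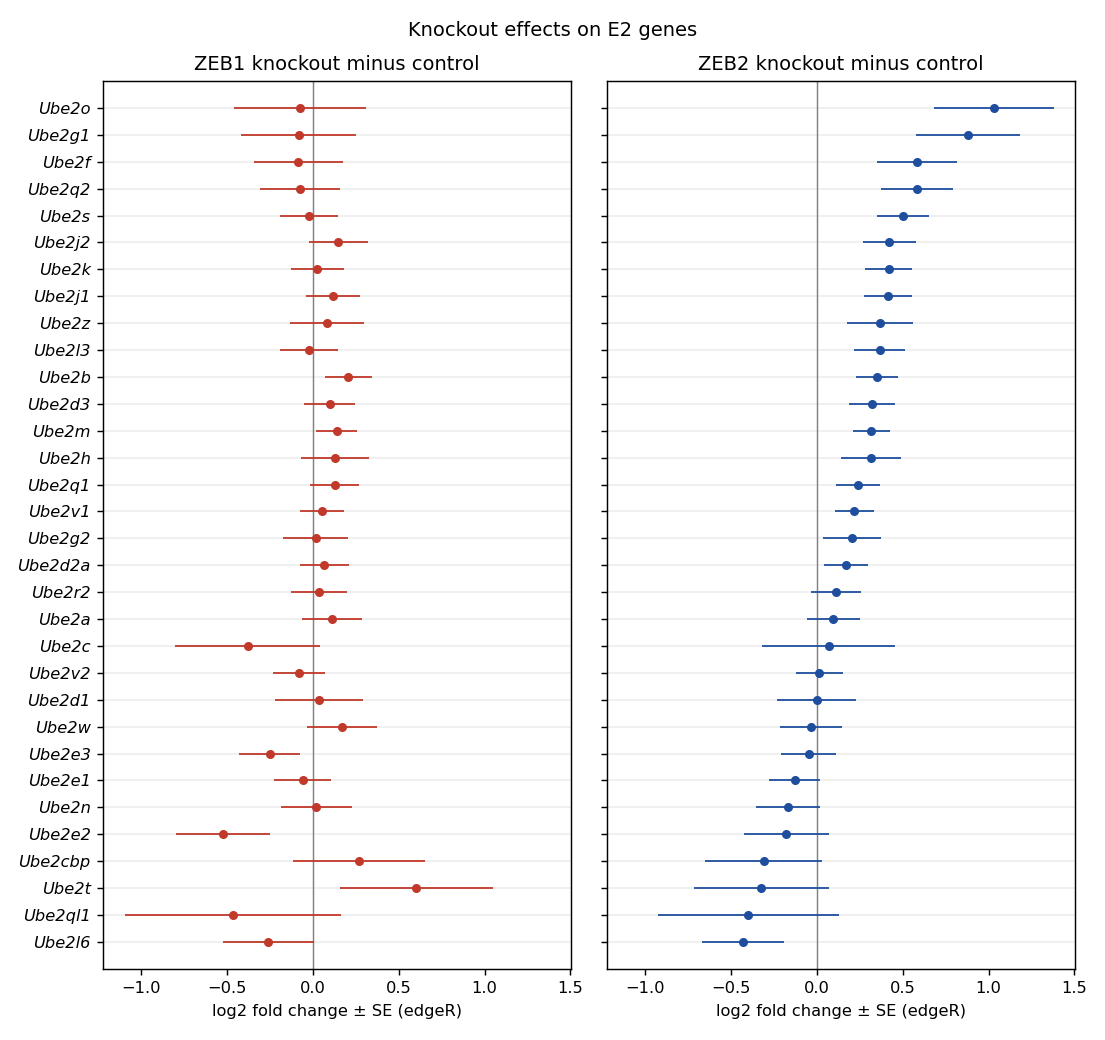
Log2 fold change of 32 tested Ube2 genes with its SE as a bar, ZEB1 knockout over ZEB1 control and ZEB2 knockout over ZEB2 control, one row per gene. In the ZEB2 line 22 of 32 points lie above 0, up to 1.03 for Ube2o, and in the ZEB1 line 19 of 32.

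Ube2o had the widest range over the libraries of the 33 tested members, 4.18-fold from its lowest to its highest. It is an unusually large enzyme that acts as E2 and E3 in one chain and, as known from reticulocytes, clears unassembled proteins. Ube2o (chromosome 11, 116537740 to 116581447, minus strand, GRCm38) had 47.0, 55.4 and 94.2 CPM in ZEB2 knockouts, against 31.5, 38.6 and 26.0 CPM in ZEB2 controls. All 3 knockout libraries lay above all 3 controls, with a log2 fold change of 1.03 (SE 0.35) that did not pass (edgeR adjusted p = 0.0945) and was 0.49 with the Y-linked covariate. In the other line Ube2o had 42.6, 24.6 and 37.1 CPM in ZEB1 knockouts, against 22.5 and 50.9 CPM in ZEB1 controls. There the 2 controls enclosed all 3 knockouts, and the log2 fold change was -0.08 (SE 0.38).

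The ERAD enzymes serve the disposal of misfolded proteins from the endoplasmic reticulum. Ube2g1 and Ube2g2 are soluble, whereas Ube2j1 and Ube2j2 are anchored in the membrane by their tails. Ube2g1, which also extends chains for cullin ligases, had 215, 236 and 338 CPM in ZEB2 knockouts, against 138, 189.6 and 101 CPM in ZEB2 controls. The knockouts did not overlap the controls, and the log2 fold change was 0.88 (SE 0.30, edgeR adjusted p = 0.0965), or 0.29 with the Y-linked covariate. Ube2g1 in the ZEB1 line had 134, 120.5 and 194 CPM in ZEB1 knockouts, against 111 and 206 CPM in ZEB1 controls, with the knockouts inside the span of the controls. Ube2g2 had 76.6, 84.3 and 111 CPM in ZEB2 knockouts, against 70.0, 87.1 and 78.9 CPM in ZEB2 controls, and had 91.2, 69.5 and 78.5 CPM in ZEB1 knockouts, against 73.6 and 84.1 CPM in ZEB1 controls. Its groups overlapped in both lines, in contrast to its paralogue in the ZEB2 line. Ube2j1 had 48.3, 45.2 and 55.8 CPM in ZEB2 knockouts, against 40.0, 37.9 and 34.0 CPM in ZEB2 controls. Its ZEB2 groups stood apart, with a log2 fold change of 0.42 (SE 0.14, edgeR adjusted p = 0.0932). Ube2j1 in the ZEB1 line had 45.0, 43.3 and 46.6 CPM in ZEB1 knockouts, against 35.7 and 47.4 CPM in ZEB1 controls, which overlapped. Ube2j2 had 42.6, 42.5 and 48.3 CPM in ZEB2 knockouts, against 32.0, 35.8 and 31.7 CPM in ZEB2 controls, again with no overlap, and a log2 fold change of 0.42 (SE 0.15). Ube2j2 in the ZEB1 line had 33.3, 30.0 and 39.9 CPM in ZEB1 knockouts, against 26.3 and 35.9 CPM in ZEB1 controls, and control 3 lay within the knockouts.

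Ube2b and Ube2a are the mammalian RAD6 enzymes, which work with the N-end rule ligases Ubr1 and Ubr2, with Rnf20 and Rnf40 on histone H2B, and with Rad18 in DNA repair. Ube2b (chromosome 11, 51985497 to 52000762, minus strand) had 651, 579 and 558 CPM in ZEB2 knockouts, against 472, 505 and 425 CPM in ZEB2 controls. In the ZEB1 line it had 602, 536 and 591 CPM in ZEB1 knockouts, against 499 and 502 CPM in ZEB1 controls. Knockouts lay above controls in both lines, with log2 fold changes of 0.35 (SE 0.12) in the ZEB2 line and 0.20 (SE 0.14) in the ZEB1 line, and neither passed (edgeR adjusted p = 0.0960 and 0.9998). Ube2a, on the X chromosome, had 22.3, 24.6 and 20.4 CPM in ZEB2 knockouts, against 16.4, 24.9 and 21.7 CPM in ZEB2 controls, and had 23.9, 20.5 and 22.3 CPM in ZEB1 knockouts, against 20.2 and 21.1 CPM in ZEB1 controls. Its groups overlapped in both lines.

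The Ube2d enzymes and the related Ube2e enzymes work with many ligases, among them Trim63 in reconstituted reactions. Ube2d3 had 350.3, 357 and 398 CPM in ZEB2 knockouts, against 279.7, 333 and 272 CPM in ZEB2 controls, with no overlap and a log2 fold change of 0.32 (SE 0.13). Ube2d3 in the ZEB1 line had 301, 281 and 326 CPM in ZEB1 knockouts, against 261 and 305 CPM in ZEB1 controls, which overlapped. Ube2d1 had 156, 133 and 112 CPM in ZEB2 knockouts, against 156, 133 and 113 CPM in ZEB2 controls, and had 94.5, 172 and 149 CPM in ZEB1 knockouts, against 156 and 114 CPM in ZEB1 controls. Its SD within groups was 0.32 on the log2 scale, and the groups overlapped in both lines. Ube2d2a ran from 43.1 to 59.9 CPM over all libraries and overlapped as well. The 3 Ube2e genes had log2 fold changes below 0 in both lines. Ube2e1 had 46.2, 45.4 and 39.6 CPM in ZEB2 knockouts, against 43.9, 50.9 and 48.7 CPM in ZEB2 controls, and had 37.9, 55.0 and 49.4 CPM in ZEB1 knockouts, against 50.9 and 48.0 CPM in ZEB1 controls. Neither line separated its groups. Ube2e2 had 1.92, 3.77 and 2.47 CPM in ZEB1 knockouts, against 4.27 and 3.53 CPM in ZEB1 controls, the lowest log2 fold change of any member in the ZEB1 line at -0.52 (SE 0.27, edgeR adjusted p = 0.9998). In the ZEB2 line Ube2e2 had 2.42, 2.78 and 2.37 CPM in ZEB2 knockouts, against 2.57, 2.77 and 3.23 CPM in ZEB2 controls, and the groups overlapped in both lines. Ube2e3 had 15.2, 21.1 and 14.5 CPM in ZEB1 knockouts, against 21.7 and 18.6 CPM in ZEB1 controls, and had 16.9, 18.6 and 14.7 CPM in ZEB2 knockouts, against 18.0, 16.7 and 17.2 CPM in ZEB2 controls, with overlap in both.

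Other enzymes build or extend ubiquitin chains. Ube2k, which makes the chains that mark proteins for the proteasome, had 54.4, 54.3 and 63.2 CPM in ZEB2 knockouts, against 39.4, 47.7 and 41.6 CPM in ZEB2 controls, with no overlap and a log2 fold change of 0.42 (SE 0.14, edgeR adjusted p = 0.0911). Ube2k in the ZEB1 line had 41.7, 40.2 and 44.3 CPM in ZEB1 knockouts, against 35.7 and 46.9 CPM in ZEB1 controls, which overlapped. Ube2r2, the paralogue of Cdc34 that serves SCF ligases, the class to which Fbxo32 belongs, had 111, 123 and 125 CPM in ZEB2 knockouts, against 98.2, 121 and 114 CPM in ZEB2 controls, and had 116, 149 and 114 CPM in ZEB1 knockouts, against 132 and 115 CPM in ZEB1 controls. Its groups overlapped in both lines. Ube2h, the E2 of the CTLH ligase, had 79.7, 83.8 and 103 CPM in ZEB2 knockouts, against 75.7, 75.0 and 63.7 CPM in ZEB2 controls, with every knockout above every control by a narrow margin. Ube2h in the ZEB1 line had 114, 75.8 and 79 CPM in ZEB1 knockouts, against 80.2 and 84.0 CPM in ZEB1 controls, and knockout 1 stood alone at the top. Ube2l3, which serves the RBR ligases such as parkin and Arih1, had 129.9, 141 and 162 CPM in ZEB2 knockouts, against 103, 129 and 104 CPM in ZEB2 controls. Its lowest knockout exceeded its highest control by less than 1 CPM. Ube2l3 in the ZEB1 line had 99.9, 103 and 118 CPM in ZEB1 knockouts, against 98.4 and 119 CPM in ZEB1 controls, which overlapped.

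Chains that serve in signalling rather than breakdown are made by Ube2n together with Ube2v1 or Ube2v2, partners that keep the fold but lack the catalytic cysteine. Ube2n had 30.5, 36.0 and 35.6 CPM in ZEB2 knockouts, against 30.6, 44.0 and 40.3 CPM in ZEB2 controls, and had 26.6, 40.4 and 38.0 CPM in ZEB1 knockouts, against 37.9 and 31.2 CPM in ZEB1 controls. Knockouts and controls overlapped in both lines. Ube2v1 was among the steadiest genes and had 97.3, 109.6 and 107 CPM in ZEB2 knockouts, against 86.1, 93.2 and 90.3 CPM in ZEB2 controls, with no overlap and a log2 fold change of 0.22 (SE 0.12). Ube2v1 in the ZEB1 line had 80.8, 89.5 and 92.5 CPM in ZEB1 knockouts, against 84.3 and 84.7 CPM in ZEB1 controls, which overlapped. Ube2v2 had 42.1, 40.1 and 36.5 CPM in ZEB2 knockouts, against 34.5, 43.2 and 40.0 CPM in ZEB2 controls, and had 29.9, 37.4 and 38.5 CPM in ZEB1 knockouts, against 38.1 and 36.7 CPM in ZEB1 controls, and its groups overlapped. Ube2v1 shares 1673 exon bases with the gene model Gm20431 on its own strand, which held 960 counts against 34284 for Ube2v1.

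The enzymes of ubiquitin-like proteins had values on both sides of their controls. Ube2m, the main NEDD8 enzyme, which switches on cullin ligases, had 71.3, 78.0 and 74.8 CPM in ZEB2 knockouts, against 55.8, 62.0 and 62.3 CPM in ZEB2 controls, and had 63.6, 62.6 and 64.3 CPM in ZEB1 knockouts, against 58.0 and 57.5 CPM in ZEB1 controls. Knockouts lay above controls in both lines, with log2 fold changes of 0.32 (SE 0.11) in the ZEB2 line and 0.14 (SE 0.12) in the ZEB1 line, and neither passed. Ube2f, the second NEDD8 enzyme, had 61.9, 78.2 and 105 CPM in ZEB2 knockouts, against 43.8, 65.3 and 54.4 CPM in ZEB2 controls, and had 51.3, 43.7 and 49.7 CPM in ZEB1 knockouts, against 39.0 and 63.4 CPM in ZEB1 controls. Its groups overlapped in both lines, and the log2 fold change in the ZEB2 line was 0.58 (SE 0.23). Ube2l6, the ISG15 enzyme, is itself an interferon-induced gene and had the lowest log2 fold change of any member in the ZEB2 line, -0.43 (SE 0.24, edgeR adjusted p = 0.217). It had 4.24, 5.96 and 3.94 CPM in ZEB2 knockouts, against 5.60, 6.54 and 6.97 CPM in ZEB2 controls, and had 4.64, 4.67 and 4.88 CPM in ZEB1 knockouts, against 7.36 and 3.95 CPM in ZEB1 controls, and its groups overlapped in both lines.

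**Figure D3:**
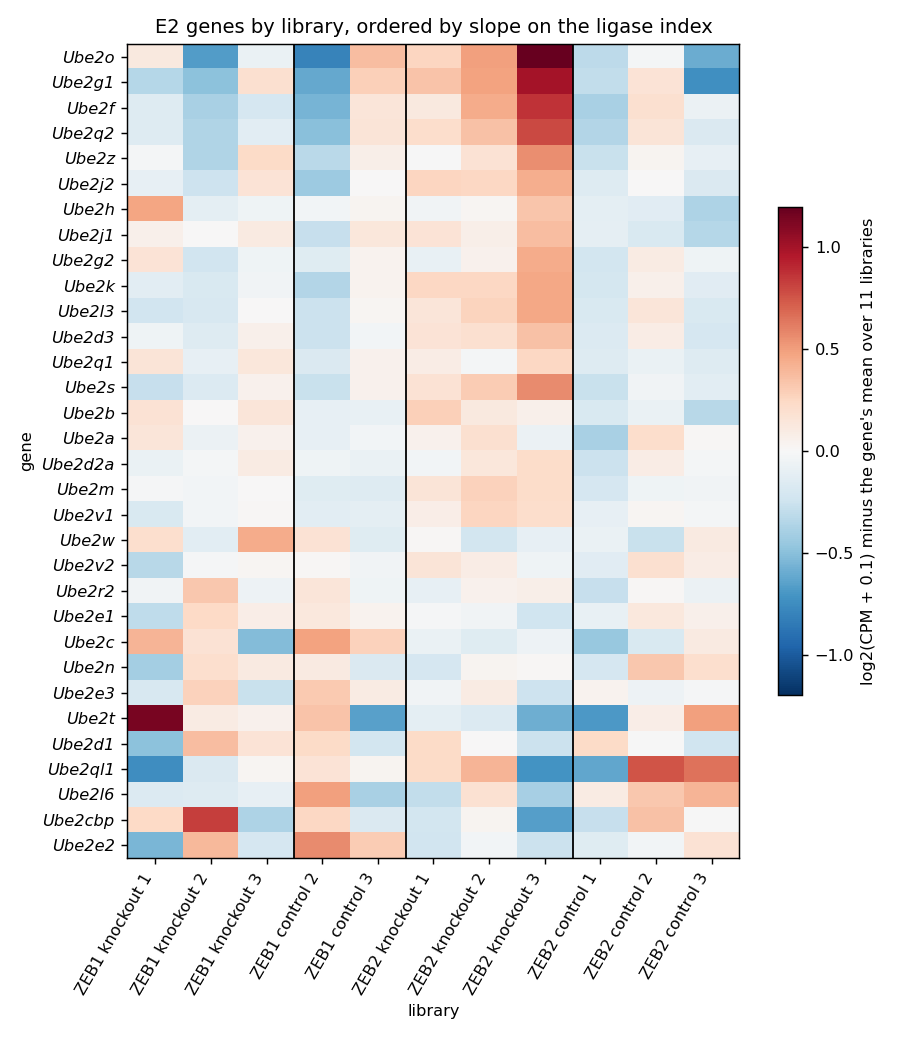
Level of 32 tested Ube2 genes in each of the 11 libraries as log2 of CPM plus 0.1, minus the gene's mean over libraries, with colours ending at 1.2 on either side, and libraries set out by group. ZEB2_KO 3 is at the upper end of the colours for Ube2o (94.2 CPM), and the low libraries for Ube2o and Ube2g1 include ZEB1_control 2, ZEB1_KO 2 and ZEB2_control 3.

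Ube2c and Ube2s, the initiating and extending enzymes of the anaphase-promoting complex, differed in level, at 0.165 and 8.06 CPM per kb. Ube2s had 45.9, 50.3 and 60.6 CPM in ZEB2 knockouts, against 33.9, 39.6 and 37.3 CPM in ZEB2 controls, with no overlap and a log2 fold change of 0.50 (SE 0.15), the smallest adjusted p of the family (edgeR 0.0832). Ube2s in the ZEB1 line had 33.6, 36.4 and 42.1 CPM in ZEB1 knockouts, against 33.8 and 42.2 CPM in ZEB1 controls, which overlapped. Ube2c had 0.388, 0.368 and 0.394 CPM in ZEB2 knockouts, against 0.278, 0.354 and 0.458 CPM in ZEB2 controls, and had 0.585, 0.483 and 0.261 CPM in ZEB1 knockouts, against 0.625 and 0.525 CPM in ZEB1 controls. Its groups overlapped in both lines, and the shared Tnnc2 exons limit its reading. The 10 proliferation markers, among them Mki67, summed to 1.70 to 2.39 CPM in ZEB2 knockouts, against 1.98 to 3.34 CPM in ZEB2 controls. In the ZEB1 line they summed to 3.05, 3.06 and 1.63 CPM in knockouts, against 3.68 and 3.11 CPM in controls, with no overlap. Of the 6 tested markers 4 lay below control there and 2 above, and their part was not tested. Ube2t, the Fanconi anaemia enzyme, had 7.96, 3.83 and 3.69 CPM in ZEB1 knockouts, against 4.54 and 2.24 CPM in ZEB1 controls, the highest log2 fold change of any member in the ZEB1 line at 0.60 (SE 0.45). It rested on knockout 1: without that library the value was 0.14. In the ZEB2 line Ube2t had 3.28, 3.18 and 2.34 CPM in ZEB2 knockouts, against 2.16, 3.77 and 5.06 CPM in ZEB2 controls, which overlapped.

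The remaining genes are less well described. Ube2q1 and Ube2q2 belong to a small family with a long N-terminal part. Ube2q2 had 58.3, 64.1 and 87.1 CPM in ZEB2 knockouts, against 39.4, 56.2 and 44.6 CPM in ZEB2 controls, with no overlap and a log2 fold change of 0.58 (SE 0.21). Ube2q2 in the ZEB1 line had 45.3, 39.2 and 46 CPM in ZEB1 knockouts, against 35.5 and 56.2 CPM in ZEB1 controls, where the controls enclosed the knockouts. Ube2q1 had 21.8, 20.2 and 24.5 CPM in ZEB2 knockouts, against 18.4, 19.4 and 18.5 CPM in ZEB2 controls, and had 23.0, 19.2 and 22.6 CPM in ZEB1 knockouts, against 18.2 and 21.4 CPM in ZEB1 controls, with overlap in the ZEB1 line alone. Ube2ql1, a relative at trace level, had 0.162, 0.290 and 0.348 CPM in ZEB1 knockouts, against 0.394 and 0.350 CPM in ZEB1 controls, and had 0.418, 0.483 and 0.169 CPM in ZEB2 knockouts, against 0.186, 0.644 and 0.592 CPM in ZEB2 controls. Its ZEB1 knockouts lay just under both controls, and its ZEB2 groups overlapped. Ube2w, which attaches ubiquitin to N-termini, had 8.24, 6.97 and 7.60 CPM in ZEB2 knockouts, against 7.73, 6.77 and 8.83 CPM in ZEB2 controls, and had 9.38, 7.47 and 11.1 CPM in ZEB1 knockouts, against 9.20 and 7.38 CPM in ZEB1 controls. Its groups overlapped in both lines. Ube2cbp had 1.49, 1.79 and 1.07 CPM in ZEB2 knockouts, against 1.42, 2.26 and 1.75 CPM in ZEB2 controls, and had 2.08, 3.19 and 1.34 CPM in ZEB1 knockouts, against 2.10 and 1.54 CPM in ZEB1 controls, with overlap in both. Ube2z, which receives ubiquitin and FAT10 from the E1 enzyme Uba6, ran from 26.3 to 49.98 CPM over all libraries and overlapped in both lines.

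Added over the 33 tested members, the E2 level was 2637, 2672 and 2978 CPM in ZEB2 knockouts, against 2095, 2406 and 2027 CPM in ZEB2 controls. It was 2311, 2253 and 2460 CPM in ZEB1 knockouts, against 2111 and 2352 CPM in ZEB1 controls. The ZEB2 groups did not overlap and the ZEB1 groups did. Without Ube2b the ZEB2 sums were 1987, 2093 and 2420 CPM in knockouts, against 1623, 1900 and 1602 CPM in controls, again without overlap. No test was made of a sum over chosen genes.

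Several features of the ZEB2 libraries moved alongside these levels, and their part in them was not tested. The myofibre markers summed to 134500 to 139200 CPM in ZEB2 knockouts, against 114900 to 122400 CPM in ZEB2 controls, with 6 of 12 above and 6 below. The fibre-type markers divided. Myh2, the myosin of fast oxidative fibres, had 871, 1289.6 and 731 CPM in ZEB2 knockouts, against 2237, 2732 and 3469 CPM in ZEB2 controls, with no overlap and a log2 fold change of -1.54 (SE 0.24, edgeR adjusted p = 0.0775). Also below control were Myh7, the slow myosin, at -1.05 (SE 0.33), Myh1 at -0.85 (SE 0.35) and Tnnt1 at -0.70 (SE 0.37). So were the oxygen carrier Mb at -0.49 (SE 0.18) and Mylpf, a light chain of fast fibres, at -0.39 (SE 0.20). Above control were Myh4, the myosin of the fastest fibres, at 0.40 (SE 0.21), Atp2a1 at 0.40 (SE 0.17), Ckm at 0.38 (SE 0.11) and Tnnt3 at 0.35 (SE 0.11). Acta1 at 0.11 (SE 0.091) and Pvalb at 0.06 (SE 0.20) were above by less, so the fast-fibre genes did not all move 1 way. The 8 fibroblast markers summed to 1716 to 1866 CPM in ZEB2 knockouts, against 1917 to 2425 CPM in ZEB2 controls, with 7 below. The 8 macrophage markers summed to 53.1 to 60.7 CPM, against 68.5 to 87.5 CPM, with 7 below. In a bulk library fewer cells of a type and less RNA per cell cannot be told apart. The 8 Schwann markers (157 to 258 CPM in knockouts, against 241 to 479 CPM in controls, all 8 below) and the 6 adipocyte markers (25.9 to 81.7 CPM, against 78.7 to 142 CPM, all 6 below) overlapped in their sums. The 8 endothelial markers summed to 427 to 503 CPM, against 469.8 to 583 CPM, with 7 below, and the 7 tested erythroid markers were all below, with sums of 1173 to 1470.0 CPM, against 1449 to 1849 CPM. No marker of any list passed the test in a knockout contrast, and none averaged 0 CPM over the libraries. The mitochondrial genome took 14.9%, 14.7% and 12.1% of counts in ZEB2 knockouts, against 16%, 17.0% and 18.0% in ZEB2 controls.

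The effects of both knockouts on E2 genes were set against each other directly. The ZEB1 effect was below the ZEB2 effect for 25 of the 33 members, with a median difference of -0.19 on the log2 scale, against 0.06 for all genes. edgeR called 0 members, against 0.0% of all genes, with a smallest adjusted p of 0.516. At an unadjusted p under 0.05, 1 member was lower, Ube2s with a difference of -0.52 (SE 0.22), against 4.17% of all genes, and 0 were higher, against 5.09%. That count of 1 rested on single libraries: it was 6 without ZEB2_control 2, 5 without ZEB2_KO 1 and 2 without ZEB1_KO 1 or ZEB1_KO 3. It was 0 without ZEB1_KO 2, ZEB2_control 1, ZEB2_control 3, ZEB2_KO 2 or ZEB2_KO 3, and with the Y-linked level as a covariate. The share of all genes at that p in these fits is not given here, so the counts do not show a change particular to the members. The largest differences were -1.11 (SE 0.51) for Ube2o, -0.96 (SE 0.45) for Ube2g1, -0.67 (SE 0.35) for Ube2f and -0.66 (SE 0.31) for Ube2q2. With 1 library left out they ran from -1.62 to -0.44 for Ube2o, from -1.39 to -0.48 for Ube2g1, from -1.02 to -0.30 for Ube2f and from -0.99 to -0.32 for Ube2q2. In each of these the first value is without ZEB1_control 2 and the second without ZEB1_control 3. With the Y-linked covariate the differences were -0.43, -0.30, -0.29 and -0.29 in the same order. At the other end stood Ube2t at 0.93 (SE 0.59), Ube2cbp at 0.58 (SE 0.51) and Ube2w at 0.20 (SE 0.27), which ran from 0.45 to 1.49, from 0.21 to 0.82 and from 0.02 to 0.34 with 1 library left out. DESeq2 and limma-voom also called 0 members. A missed threshold at these SEs does not show that the knockouts acted alike.

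The 2 control groups, which differ in the floxed allele and carry no Cre, gave a measure of difference without any knockout. The ZEB2 control level was above the ZEB1 control level in 16 members and below in 17, with a median of -0.0025 on the log2 scale. edgeR called 0 members, against 0.0195% of all genes, and DESeq2 and limma-voom called 0 as well. No member had an unadjusted p under 0.05, against 1.57% of all genes higher and 1.75% lower. The farthest values were -0.65 (SE 0.42) for Ube2c and -0.45 (SE 0.27) for Ube2e2 on the lower side and 0.35 (SE 0.61) for Ube2ql1 on the higher side.

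Within groups, some E2 genes varied with the 2 atrophy ligases while others varied little. The mean log2 CPM of Trim63 and Fbxo32, with each group's mean taken away, was used as an index, so that 1 unit is a doubling of the ligases within a group. Trim63 itself had 5157, 4973 and 7378 CPM in ZEB2 knockouts, against 2139, 3197 and 956 CPM in ZEB2 controls, and had 4709.9, 925 and 2854 CPM in ZEB1 knockouts, against 769.9 and 4750.0 CPM in ZEB1 controls. Its groups were apart in the ZEB2 line and overlapped in the ZEB1 line. The index was lowest in ZEB1_control 2 (-1.09), ZEB1_KO 2 (-1.0) and ZEB2_control 3 (-0.84), and highest in ZEB1_control 3 (1.09) and ZEB1_KO 1 (0.70). Of the 4 libraries with no Y-linked reads, 3 had the lowest index values, and the fourth, ZEB1_KO 1, had the second highest. The spread within groups was largest for Ube2ql1 (SD of 0.63 on the log2 scale), Ube2t (0.55), Ube2o (0.50) and Ube2g1 (0.43), of which the first 2 have few counts. It was smallest for Ube2m (0.06), Ube2v1 (0.08) and Ube2b (0.10).

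The slope on this index was positive and passed for 3 members, among them Ube2o and Ube2g1. Ube2o had a slope of 0.52 (SE 0.086) log2 units per unit of index (edgeR adjusted p = 0.00328). Ube2g1 had a slope of 0.42 (SE 0.10, edgeR adjusted p = 0.0184). The 3 called members are 9.09% of those tested, against 8.99% of all genes with a positive slope, so as a share the family was at the background. No member had a called negative slope, against 3.92% of all genes, and 12.9% of all genes were called in either direction. The median slope was 0.04 over members and -0.02 over all genes.

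Next in order were Ube2q2 at 0.24 (SE 0.079) and Ube2j2 at 0.17 (SE 0.059, edgeR adjusted p = 0.0635 and 0.0807), neither of which passed. The most abundant E2 gene had nearly no slope: Ube2b stood at 0.06 (SE 0.057, edgeR adjusted p = 0.525). The lowest slopes were those of Ube2e2 at -0.27 (SE 0.10), Ube2l6 at -0.23 (SE 0.11) and Ube2d1 at -0.20 (SE 0.11), and none passed. Ube2e3 and Ube2e1 were also on the negative side, at -0.16 (SE 0.069) and -0.11 (SE 0.067).

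**Figure D4:**
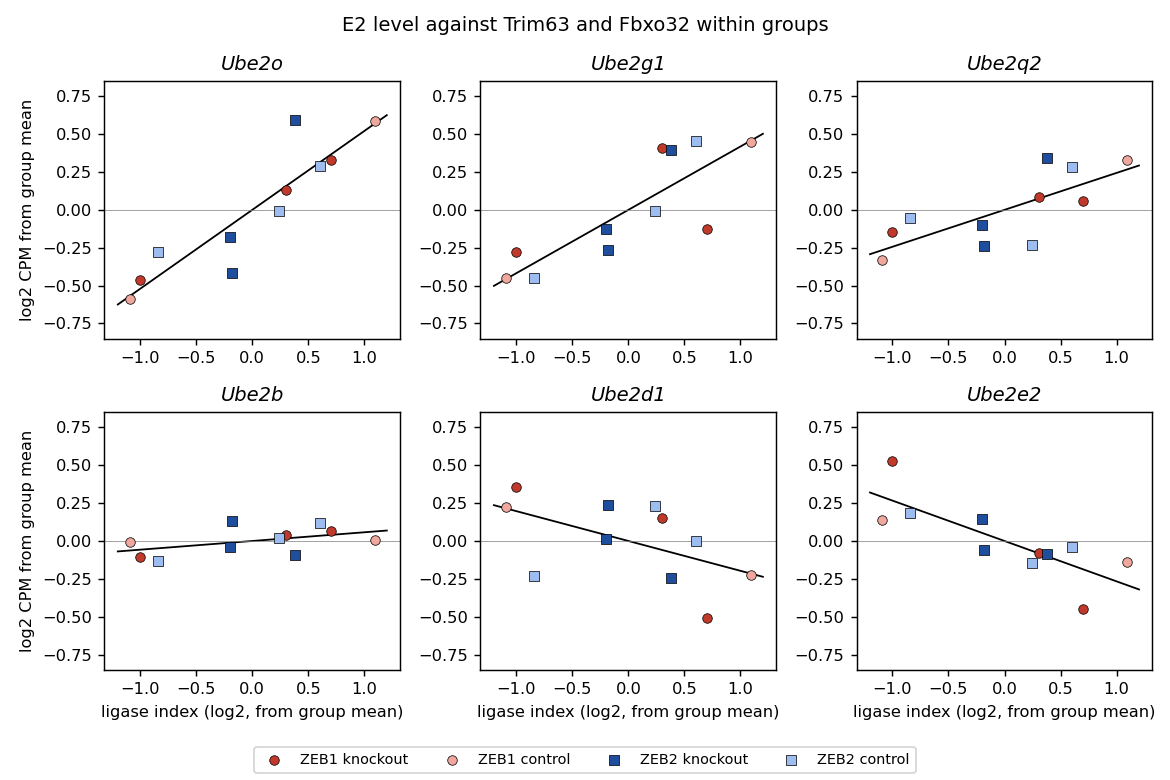
Level of Ube2o, Ube2g1, Ube2q2, Ube2b, Ube2d1 and Ube2e2 as log2 CPM, 1 panel per gene, minus the group mean, against the ligase index of each of the 11 libraries, coloured by group, with the edgeR slope as a line through 0. The slopes are 0.52, 0.42, 0.24, 0.06, -0.20 and -0.27 in that order, and the libraries at both ends of the index are the 2 ZEB1 controls (-1.09 and 1.09).

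The size of the slopes of Ube2o and Ube2g1 held when libraries were left out, with 0.47 to 0.57 for Ube2o and 0.38 to 0.50 for Ube2g1 over the 11 omissions of 1 library. The calls depended on a few libraries and on the Y-linked level. Without the 2 libraries farthest in the index, which are both ZEB1 controls, the slopes were 0.55 for Ube2o and 0.54 for Ube2g1, but no member passed (edgeR adjusted p of 0.376 and 0.429), and 22 genes in all remained called in place of 1991. Leaving out either ZEB1 control alone also ended all 3 calls, and leaving out ZEB1_KO 2 or ZEB2_control 3 left 1, that of Ube2o. With the Y-linked level as a covariate the slope of Ube2g1 was 0.14 (edgeR adjusted p = 0.253) and that of Ube2o 0.45 (0.0550). In that fit Ube2n was the called member, with a slope of -0.35 (edgeR adjusted p = 0.0478), against -0.13 without the covariate. Some markers moved with the index as well, and their part in the slopes was not tested: of 12 myofibre markers the slow-fibre genes Myh7 and Tnnt1 fell, with slopes of -0.48 (SE 0.090) and -0.49 (SE 0.12), as did Retn among 6 adipocyte markers and Bpgm among 7 erythroid markers. All 8 fibroblast markers had slopes below 0, and 0 of them passed.

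The genes around the E2 step gave the wider picture, from lists chosen with earlier results of these data known. No gene of any of them passed in a knockout contrast. All 4 ubiquitin genes lay above control in the ZEB2 line, with a median of 0.68. Ubb had 2556, 2695 and 3967 CPM in ZEB2 knockouts, against 1141, 1788 and 789.9 CPM in ZEB2 controls, with no overlap and a log2 fold change of 1.31 (SE 0.38, edgeR adjusted p = 0.0824). On the ligase index 2 of the 4 rose and 0 fell, against 8.99% and 3.92% of all genes, among them Ubb with a slope of 0.60 (SE 0.073, edgeR adjusted p = 0.000658). Of the 10 E1 genes 5 lay above and 5 below control in the ZEB2 line, and on the index 1 of 10, the SUMO E1 subunit Sae1, fell, against the same 3.92%, with a slope of -0.23 (SE 0.070, edgeR adjusted p = 0.0491). Uba1, the main ubiquitin E1, had 108, 117 and 142 CPM in ZEB2 knockouts, against 114, 119 and 116 CPM in ZEB2 controls, which overlapped. Of the 8 tested E2-fold genes under other symbols 1 rose with the index, against the same 8.99%, namely Birc6, a giant E2 and E3 hybrid like Ube2o, with a slope of 0.44 (SE 0.091, edgeR adjusted p = 0.0100).

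The 32 tested E3 partners lay above control in 26 cases in the ZEB2 line (median 0.31) and in 21 in the ZEB1 line (median 0.03). On the index 8 of the 32 rose and 0 fell, against 8.99% and 3.92% of all genes, which counts Trim63 and Fbxo32, the genes that define it. The other 6 were Ubr2, Ubr4, Rnf40, Arih1, Ranbp2 and March6. Ubr2, the N-end rule ligase that pairs with Ube2b, had 265, 269.7 and 404 CPM in ZEB2 knockouts, against 175, 149 and 106 CPM in ZEB2 controls, with no overlap. Its slope was 0.61 (SE 0.10, edgeR adjusted p = 0.00286), beside 0.06 for Ube2b itself. Ranbp2, a SUMO ligase of the nuclear pore, had a slope of 0.50 (SE 0.076, edgeR adjusted p = 0.00201). March6, a membrane ligase of ERAD, had a slope of 0.23 (SE 0.061, edgeR adjusted p = 0.0306). Of the 8 ubiquitin-like protein genes 7 lay above control in the ZEB2 line, with summed levels of 509 to 521 CPM in knockouts, against 379 to 423 CPM in controls, and 0 were called.

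The ISG15 system stood on the other side. All 12 genes of the ISG15 and interferon list, Ube2l6 among them, lay below control in the ZEB2 line (median -0.61) and in the ZEB1 line (median -0.49), and 0 passed in either. Isg15, the modifier that Ube2l6 carries, had 0.926, 0.989 and 0.704 CPM in ZEB2 knockouts, against 1.36, 1.93 and 2.31 CPM in ZEB2 controls, with no overlap and a log2 fold change of -1.09 (SE 0.37, edgeR adjusted p = 0.0940). Isg15 in the ZEB1 line had 0.649, 1.42 and 1.10 CPM in ZEB1 knockouts, against 2.01 and 0.944 CPM in ZEB1 controls, which overlapped. On the ligase index 4 of the 12 fell, against 3.92% of all genes, among them Irf7 at -0.33 (SE 0.10), Ifit3 at -0.40 (SE 0.087) and Ifit1 at -0.42 (SE 0.12, edgeR adjusted p of 0.0449, 0.0124 and 0.0449). The list summed to 34.4 to 43.7 CPM in ZEB2 knockouts, against 58.7 to 73.3 CPM in ZEB2 controls. In the ZEB1 line the sums overlapped, with 44.7, 58.3 and 53.3 CPM in ZEB1 knockouts, against 98.5 and 48.0 CPM in ZEB1 controls, and the value of Ube2l6 was 0.24 without ZEB1_control 2. The macrophage markers moved alongside it as given above, and their part was not tested.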

How the data were processed

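Libraries came from total RNA of gastrocnemius by a stranded mRNA kit, per the labels' protocols. The authors deposited 1 table of estimated counts, whole numbers per gene with no normalization. The submitters' processing notes name STAR, RSEM, DESeq2 and GRCm38. For versions, annotation release and strand setting, the sources used here give nothing. RSEM divides reads between similar genes, and the counts of close copies are uncertain.

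Of 55385 genes, 54487 matched GENCODE M21 by identifier and version, the 37 members among them, and it supplied coordinates and exon lengths. The members and gene lists were chosen with earlier results of these data known. Counts were filtered with filterByExpr (minimum count 10, total 15), which left 15416 genes and 99.96% of counts. The counts left were scaled by TMM and fitted with 4 group means over 11 libraries in edgeR 4.0.16 (R 4.3.3, robust quasi-likelihood, biological coefficient of variation 0.240). p-values were adjusted by Benjamini-Hochberg over all genes tested, with a threshold of 0.05. An SE is the absolute log2 fold change over the square root of F. The slope added the ligase index, from log2 CPM with a prior count of 2, to this fit. Fits were also run on simulated counts, drawn with less spread between libraries than these data have. That run checks the code and does not give error rates for these data. Named members were those of a list by role, the 5 per direction with the smallest p in each contrast, and the 3 highest and 3 lowest per kb of summed exons. Alternatives were DESeq2 1.42.0, limma-voom (limma 3.58.1), other scalings, filters and sets of libraries, a covariate for the Y-linked level and a block on replicate number. Promoter windows came from RefSeq (GRCm38.p6), in which 30 members had an entry. A few genes are counted in the totals and not reported here by name.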

Additional observations from a re-analysis of the deposited data

How the results depend on the processing

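Of the counts of E2 genes called, those for the ZEB1 knockouts, for the difference of both effects and between controls were 0 under every alternative run. For the ZEB2 knockouts DESeq2 gave 7 and a fit to the ZEB2 libraries alone 4, in place of 0, and every other alternative gave 0. All genes called there numbered 2587 with DESeq2, 2077 in the fit to the ZEB2 libraries and 348 without a low-count filter, in place of 0. DESeq2 called 21 genes in the ZEB1 line, 17 for the difference and 16 between controls, in place of 0, 0 and 3. The slope gave 3 members, against 5 with DESeq2 (an alternative chosen after seeing the data), 1 with the Y-linked level as a covariate, 0 without the 2 libraries farthest in the index, and 0 to 4 with 1 library left out. The cause was not tested, and over all genes the slope called 22 to 2698, in place of 1991. The median of E2 genes in the ZEB1 line ran from -0.073 to 0.12 with 1 library left out. In the ZEB2 line it was 0.088 under upper-quartile scaling, which moved the median of all genes to -0.18, in place of -0.05. With the Y-linked level as a covariate Ube2t in the ZEB2 line stood at 0.16, in place of -0.32. With 1 library left out, values crossed 0 in the ZEB1 line for Ube2q1 (-0.0041 to 0.24), Ube2j2 (-0.079 to 0.38) and Ube2l6 (-0.65 to 0.24). They did so in the difference of effects for Ube2l6 (-0.24 to 0.65), and between controls for Ube2l6 (-0.22 to 0.67), Ube2j2 (-0.13 to 0.32) and Ube2j1 (-0.37 to 0.053), and none of these passed in any fit. Same-numbered libraries did not deviate together throughout (correlations of 0.46 and 0.17 in the ZEB1 line and 0.20, -0.03 and -0.31 in the ZEB2 line), so the numbers were not taken as pairs. A replicate block left the counts at 0 in each contrast, gave 3 members for the slope (Ube2g1, Ube2o and Ube2q2) among 919 genes, and medians of 0.06 in the ZEB1 line and 0.22 in the ZEB2 line. Where a ZEB1 control was left out, the lone control was assumed to vary like the other groups. With 2 controls, the ZEB1 line limits what can be called, and Ube2c, Ube2ql1 and Ube2cbp had few counts (156, 137 and 664 over all libraries).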
